A study of Mus musculus with 6 samples.

Results

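The genes described here are those of glutathione, peroxiredoxin and NRF2 redox metabolism in the pancreas of mice that lost Ptf1a in adulthood. Members were chosen by symbol alone (glutathione S-transferases and peroxidases, peroxiredoxins, thioredoxin-family genes, glutaredoxins, glutathione synthesis, superoxide dismutases, catalase, heme oxygenases, Nfe2l2, Keap1, Srxn1, and the Aldh1, Aldh3 and Cbr families), which gave 72 of the 10245 genes in the deposited table. The prefixes also took in genes with other functions, namely Aldh16a1, Aldh18a1 and the spliceosomal proteins Txnl4a and Txnl4b, and these were kept. RNA from whole pancreas of 3 control mice, genotype Ptf1a(CreER/+), was compared with that of 3 Ptf1a cKO mice, genotype Ptf1a(CreER/fl). All 6 mice carried the CreER allele, which replaces Ptf1a coding sequence at its own locus, so the controls had 1 working copy of Ptf1a and recombination was limited to cells in which the Ptf1a locus is active, in the adult mainly acinar cells. The study also lists an R26R-EYFP reporter allele for its mice with inducible Cre. Each mouse received tamoxifen by gavage at 0.25 mg per g on 3 days and was killed on day 14. Controls were 4 months and Ptf1a cKO mice 5 months old, so age and genotype cannot be told apart. Control replicate 1 and Ptf1a cKO replicate 2 were male and the other 4 mice were female.

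Glutathione is a cysteine-containing tripeptide that serves as the main soluble thiol of the cell. Glutamate-cysteine ligase, made of the catalytic subunit GCLC and the modifier subunit GCLM, and glutathione synthetase (GSS) build it, glutathione reductase (GSR) regenerates it, peroxidases (GPX) spend it on peroxides, and transferases (GST) couple it to electrophiles. Peroxiredoxins remove peroxides, many of them with electrons from thioredoxin. The transcription factor NRF2, encoded by Nfe2l2, is held in check by KEAP1 and binds antioxidant response elements near many of these genes. Acinar cells fold large amounts of disulfide-bonded enzymes, a process that makes hydrogen peroxide in the endoplasmic reticulum (ER), where PRDX4 removes it.

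Values are normalized read counts on the authors' common scale, and comparisons between groups used limma on log2(value + 3.41 normalized counts), with Benjamini-Hochberg adjustment over all 10245 genes. A gene was called when its adjusted p was under 0.05. Library medians over genes ran from 125 to 129 normalized counts, and depth could not be read from the table. Ptf1a itself was at 566, 601 and 652 normalized counts in the control libraries and at 19.8, 70.1 and 10.2 in the Ptf1a cKO libraries. Here and below, 3 values in a row are replicates 1, 2 and 3, with the controls first. Digestive enzymes and secreted acinar proteins were 35 of 39 listed genes, 25 of them called lower and 2 higher. They made up 79.0% to 82.1% of the normalized counts assigned to genes in control and 38.3% to 63.8% in Ptf1a cKO libraries. Reads not assigned to a gene are outside these totals. Markers of other cells moved with genotype as well. Summed ductal markers (12 of 14 listed, 8 called higher) ran from 6008 to 6741 normalized counts in the control libraries and 28883 to 112569.7 in the Ptf1a cKO libraries. Most of the latter was Spp1, which went from 1677, 1959 and 1327 to 87512, 20971 and 105340. Leukocyte markers (11 of 15, 8 higher) ran from 789.5 to 1434 normalized counts in the control libraries and 1805 to 5372 in the Ptf1a cKO libraries, and fibroblast and stellate markers (13 of 13, 12 higher) from 3537 to 4124 normalized counts in the control libraries and 6787 to 12332 in the Ptf1a cKO libraries. The gastric list (8 of 14, 6 higher) ran from 22956 to 27883 normalized counts in the control libraries and 213131 to 567427 in the Ptf1a cKO libraries, and adipocyte markers (6 of 9, 1 higher) from 1760.0 to 2004 normalized counts in the control libraries and 2164 to 3301 in the Ptf1a cKO libraries. Most of the adipocyte sum was Lpl, which was not called (1770, 1590 and 1570 against 2339, 1659 and 2008). The 3 of 8 hepatocyte markers measured ran from 1150.1 to 1959 normalized counts in the control libraries and 13236 to 93009.8 in the Ptf1a cKO libraries, with 2 called higher. Nearly all of this sum was Ttr, with 92771, 13129 and 86790 in the Ptf1a cKO libraries. Alb went from 37.8, 20.1 and 22.7 to 233, 68.9 and 230, and Cyp2e1 was not called. Endothelial (9 of 9) and endocrine (10 of 10) markers held 0 called genes. Their sums ran from 1082 to 1307 normalized counts in the control libraries and 1039 to 1261 in the Ptf1a cKO libraries, and from 11722 to 43342 normalized counts in the control libraries and 5981 to 34068 in the Ptf1a cKO libraries. No measured marker of these lists was at 0 in all controls. The part of these shifts in the results below was not tested, and in whole tissue fewer cells of a type and less RNA per cell cannot be told apart.

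Redox genes were called more often as higher than as lower in Ptf1a cKO pancreata. Of the 72 members, 24 (33.3%) were higher, 12 (16.7%) were lower and 36 did not pass the threshold. Called members thus made up 50.0%, where 33.9% of all genes were called. Over all genes 17.1% were called higher and 16.8% lower, so the share of lower members lay near the background and that of higher members above it. The median log2 fold change was 0.19 for the members and 0.0364 for all genes. Among the called members, 9 rose and 3 fell by at least 2-fold on the fitted scale, where the table as a whole gave 6.35% and 4.69%. The largest rises were those of Gpx2, Gsta4, Mgst1 and Cat, and the largest falls those of Aldh1l2, Aldh18a1 and Gstp1. No gene of the deposited table had a mean under 16.8 normalized counts. Control means of Gpx2 (2.13) and Gsta4 (8.73) lay below this, so both were in the table only through their Ptf1a cKO values. The groups did not overlap in 46 members (27 with Ptf1a cKO above, 19 below), against 50.8% of all genes. A single gene tested by exact permutation of 3 against 3 libraries cannot give a two-sided p under 0.10. Any gene whose groups do not overlap reaches that value, so this test adds nothing to the counts of non-overlap.

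**Figure D1:**
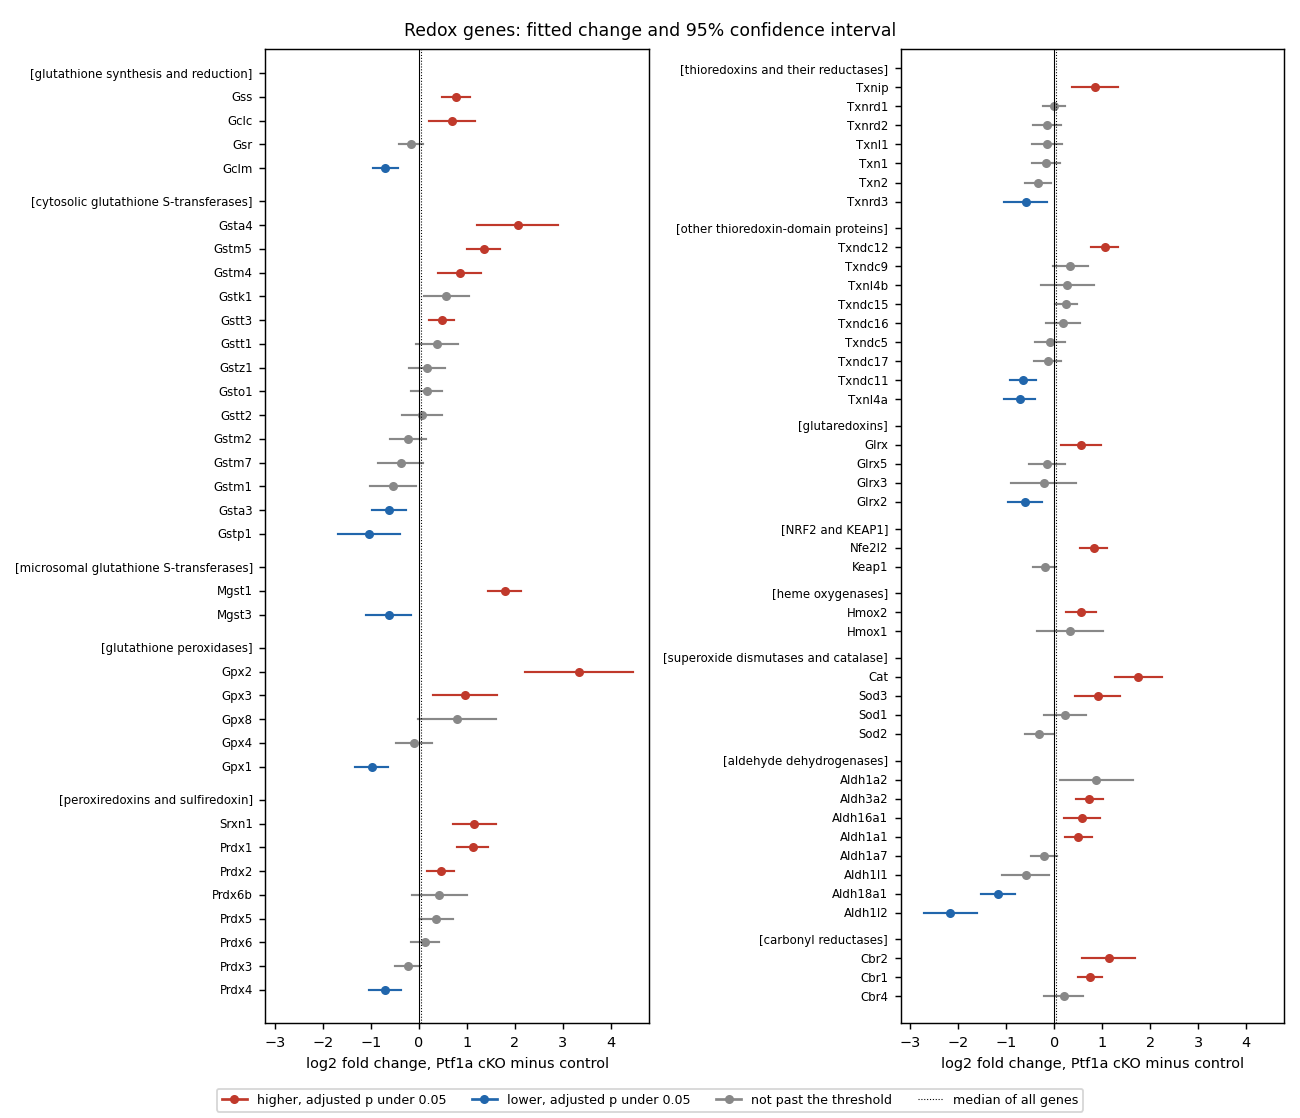
Fitted log2 fold change of the 72 redox genes (x axis, Ptf1a cKO minus control) with 95% confidence intervals as bars, grouped by class. Red marks the 24 members called higher, blue the 12 called lower and grey the 36 that did not pass, and the classes mostly hold members of both directions.

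The direction of many falls depends on the scale. If every library is given the same total, the median of all genes shifts to 1.49, 71 of the 72 members are above 0 and Aldh1l2 alone stays below it. Of all genes called, 98.7% are then higher, against 50.4% on the authors' scale, and 69.8% when the digestive enzymes are left out of the total. A change of scale moves all genes of a library by nearly the same amount. Relative to the median gene at the same total, the 24 higher members therefore stayed above it and the 12 lower members below it. This follows almost entirely from the scaling itself and lends the calls no separate support.

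Nfe2l2 mRNA rose in Ptf1a cKO pancreata while Keap1 mRNA did not pass the threshold. Nfe2l2 (GRCm38 chr2:75675513-75704641) was at 214, 237 and 234 normalized counts in the control libraries and at 395, 366 and 469 in the Ptf1a cKO libraries. All 3 Ptf1a cKO values lay above all controls, at 1.79 times the control mean (log2 fold change 0.83, SE 0.125, limma adjusted p = 0.0014). Keap1, the adaptor that targets NRF2 for degradation, was at 323, 309.7 and 311 and at 266, 292 and 262, also without overlap but with Ptf1a cKO below (log2 fold change -0.20, limma adjusted p = 0.163). The ratio of Nfe2l2 to Keap1 within a library was 0.664, 0.766 and 0.753 in the controls and 1.48, 1.25 and 1.79 in Ptf1a cKO. The gene Gm16754 shares 10.4% of the 50-base windows of the Keap1 transcript, so the level of Keap1 is uncertain. Transcripts known from other tissues as NRF2 targets did not share a direction. Srxn1, which encodes sulfiredoxin, the enzyme that repairs overoxidized peroxiredoxins, rose from 40.3, 29.3 and 34.0 to 68.2, 101 and 75.4 normalized counts (log2 fold change 1.16, SE 0.199, limma adjusted p = 0.0026). Its highest Ptf1a cKO value came from replicate 2, the library with the most remaining Ptf1a. Txnrd1, the cytosolic thioredoxin reductase, was at 317, 338 and 333 in control and at 312, 344 and 329.9 in Ptf1a cKO libraries, with overlapping groups (log2 fold change -0.00433, SE 0.103, limma adjusted p = 0.978, 95% interval -0.24 to 0.23). Hmox1, the inducible heme oxygenase, was at 56.0, 22.7 and 31.6 and 42.6, 37.1 and 54.4, with control replicate 1 above all Ptf1a cKO libraries and the other 2 controls below them (log2 fold change 0.33, limma adjusted p = 0.429, 95% interval -0.36 to 1.02). Its constitutive relative Hmox2 rose by 0.56 on the log2 scale (limma adjusted p = 0.0127), from 101, 95.4 and 76.9 to 139, 137 and 128 normalized counts. Without strand information, 47.7% of the 50-base windows of the Hmox2 transcript are shared with the neighboring Cdip1, so its value is uncertain. Nqo1 falls under the symbol rule but was not among the 72 genes that the rule gave, so it has no value here.

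The core letters of the antioxidant response element, TGACNNNGC on either strand, were looked for from 250 bases before to 50 after each RefSeq gene start (GRCm38.p6). A window was found for 61 of the 72 members, and 13 of these (21.3%) held a match, against 17.3% of the genes of the table with a window and 14.0% of all genes. By direction, 5 of 21 higher (23.8%), 3 of 10 lower (30.0%) and 5 of 30 members that did not pass (16.7%) held one. The following stretches, each with its match upstream of the RefSeq start used, are shown because they pair members that rose with members that fell or did not pass. Capitals mark the match, and in Prdx1, Mgst1, Gclm and Txnrd1 the core reads on the opposite strand.
Prdx1: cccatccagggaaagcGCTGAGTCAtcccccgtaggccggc
Mgst1: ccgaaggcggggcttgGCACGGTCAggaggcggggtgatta
Gstm5: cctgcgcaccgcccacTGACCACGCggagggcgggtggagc
Gclm: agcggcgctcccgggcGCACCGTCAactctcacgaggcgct
Txnrd1: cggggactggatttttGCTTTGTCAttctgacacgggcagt
In GRCm38.p6 these lie at chr4:116685450-116685490, plus strand (Prdx1), chr6:138140455-138140495, plus strand (Mgst1), chr3:107895796-107895836, plus strand (Gstm5), chr3:122245407-122245447, plus strand (Gclm) and chr10:82859098-82859138, plus strand (Txnrd1). In GENCODE the genes of Mgst1 and Txnrd1 start further upstream, at 138140316 and 82833951, so these 2 stretches lie inside the annotated gene. The Gstm5 stretch runs across the GENCODE start of its gene, 107895821. Of the 13 matches, that of Prdx1 was the 1 match overlapped by the AP-1 motif TGANTCA, which was found in 5 of 21 higher, 1 of 10 lower and 0 of 30 other members and in 5.92% of the genes of the table with a window and 8.97% of all genes. A match of letters is a description and does not show binding.

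Within glutathione synthesis the subunits of glutamate-cysteine ligase moved in opposite directions. Gclm, the modifier subunit (GRCm38 chr3:122245557-122270732), fell from 158, 175 and 170.2 to 104, 108 and 93.7 normalized counts (log2 fold change -0.70, SE 0.116, limma adjusted p = 0.00228). Its groups did not overlap. Gclc, the catalytic subunit (GRCm38 chr9:77754535-77794485), was at 147, 183 and 194 in the controls and rose to 305, 198 and 369.8 (log2 fold change 0.69, SE 0.215, limma adjusted p = 0.035). Ptf1a cKO replicate 2 lay only just above the highest control. The Gclc call was kept in 1 of 6 fits with 1 library left out, that without Ptf1a cKO replicate 2, and the adjusted p of the others was 0.124 without control replicate 1, 0.0755 without control replicate 2, 0.0566 without control replicate 3, 0.0979 without Ptf1a cKO replicate 1, 0.111 without Ptf1a cKO replicate 3. The ratio of Gclc to Gclm within a library was 0.935, 1.05 and 1.14 in the controls and 2.93, 1.84 and 3.95 in Ptf1a cKO, a shift that every library showed and that does not depend on the scaling of libraries. Gss, which adds glycine to complete glutathione, rose from 56.7, 58.2 and 52.9 to 91.9, 103 and 98.8 normalized counts (log2 fold change 0.77, SE 0.13, limma adjusted p = 0.00236) and kept its call in all 6 fits. Gsr was steady in the controls at 155, 155 and 155 and was at 125, 144 and 146 in Ptf1a cKO, below them but not past the threshold (log2 fold change -0.17, limma adjusted p = 0.286).

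Among genes that supply cysteine for glutathione or break glutathione down, more were lower than higher. Of a list of genes of the wider pathway, written with earlier results of this table known, 79 of 94 were measured and 22 were called higher and 26 lower, where 17.1% and 16.8% of all genes were. Among the 26 measured genes of cystine, cysteine and glutathione handling, 6 were higher (23.1%) and 12 lower (46.2%). Slc7a11, the cystine carrier, fell from 103, 128 and 75.8 to 20.5, 36.2 and 47.7 normalized counts (log2 fold change -1.50, SE 0.29, limma adjusted p = 0.00444), and its partner chain Slc3a2 by 1.11 on the log2 scale (limma adjusted p = 0.00112). The enzymes of transsulfuration, which make cysteine from homocysteine, were also lower. Cbs went from 4836, 5126 and 3576 to 1584, 1835 and 1279.7 (log2 fold change -1.52, limma adjusted p = 4.89e-04). Cth went from 507, 577 and 325 to 208, 144 and 206 (log2 fold change -1.30, limma adjusted p = 0.00261). No library of one group reached the other for these genes. Chac1, which cleaves glutathione inside the cell, fell 5.57-fold between group means, from 1087, 1139 and 479.7 to 114, 281 and 91.4 (log2 fold change -2.53, SE 0.429, limma adjusted p = 0.00246). Ggt1, which cleaves it outside the cell, fell from 3914, 3524 and 2855 to 908, 1339.6 and 634 (log2 fold change -1.89, limma adjusted p = 7.10e-04), and the glutaminase Gls2 from 1401, 1407 and 979 to 78.2, 216 and 60.2 (log2 fold change -3.58, limma adjusted p = 3.08e-04). Ptf1a cKO replicate 2 held the highest Ptf1a cKO value for each of Cbs, Chac1, Ggt1, Gls2 and Slc3a2, but not for Slc7a11 or Cth.

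Other genes of this list rose. Abcc2, an exporter of glutathione conjugates, was near the bottom of the scale in the controls (1.23, 3.41 and 0.692) and at 124, 63.6 and 88.3 normalized counts in Ptf1a cKO (log2 fold change 4.19, limma adjusted p = 1.60e-04), a change that the pseudocount understates. Its control mean lay below the lowest mean of any gene in the table, 16.8, so Abcc2 was there only through its Ptf1a cKO values. Cdo1, which oxidizes cysteine, rose from 101, 112 and 149.9 to 496, 492 and 375 (log2 fold change 1.89, limma adjusted p = 1.42e-04). Anpep, a peptidase that acts on cysteinylglycine, rose from 1753, 1774 and 1410.1 to 7709, 8563 and 7230.2 (log2 fold change 2.25, limma adjusted p = 2.63e-05). The remaining rises of at least 2-fold were those of Abcc5 (log2 fold change 1.22, limma adjusted p = 0.0126) and Oplah, which opens oxoproline (log2 fold change 1.17, limma adjusted p = 0.00751).

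**Figure D2:**
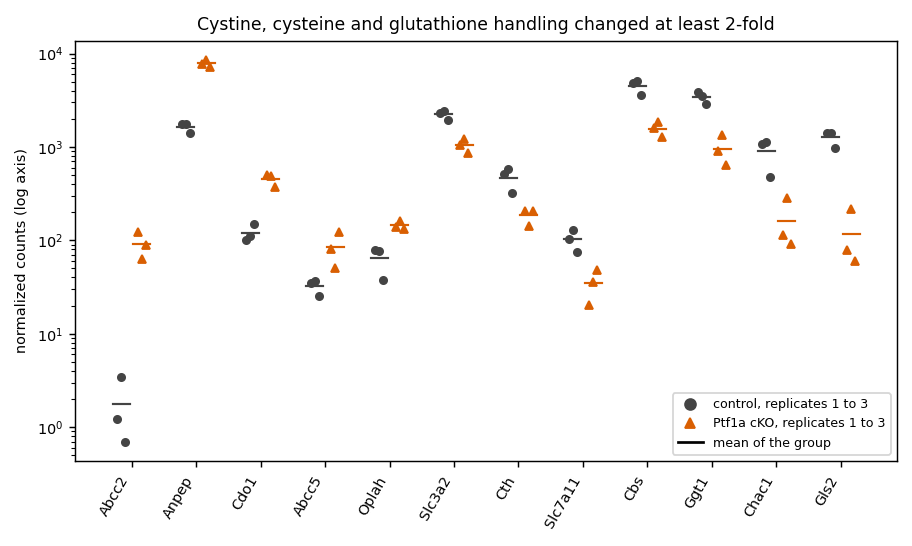
Normalized counts (log axis) by library of the 12 genes of cystine, cysteine and glutathione handling that changed at least 2-fold and passed the threshold. Circles are the 3 control and triangles the 3 Ptf1a cKO libraries, and lines are group means. The groups do not overlap in any of the 12, with Abcc2 to Oplah higher and Slc3a2 to Gls2 lower in Ptf1a cKO.

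Cat and Prdx4, which both remove hydrogen peroxide, moved in opposite directions. Catalase, which acts on hydrogen peroxide in peroxisomes (Cat, GRCm38 chr2:103453849-103485160), was at 631, 662 and 499 normalized counts in the controls and at 2595, 1409 and 2185 in Ptf1a cKO. The mean rose 3.45-fold (log2 fold change 1.75, SE 0.217, limma adjusted p = 5.47e-04), and the call held with each library left out. Prdx4, the ER peroxiredoxin (GRCm38 chrX:155323918-155340754), fell from 2404, 2648 and 2359.8 to 1835, 1459 and 1305 (log2 fold change -0.70, SE 0.148, limma adjusted p = 0.00703). The ratio of Cat to Prdx4 within a library was 0.262, 0.25 and 0.211 in control and 1.41, 0.966 and 1.67 in Ptf1a cKO libraries. Per kb of all annotated exon, Prdx4 had the highest level of the 72 members in control pancreata, 1173 ± 73.7 normalized counts per kb (SD, n = 3), against 229 ± 33.1 for Cat. In Ptf1a cKO pancreata the same levels were 728 ± 129 for Prdx4 and 789.6 ± 231 for Cat (SD, n = 3), which overlap. Their order there turns with the length used, an alternative chosen after the data were seen. Per kb of the longest coding transcript, Prdx4 was at 2496 ± 157 in control and 1548 ± 275 in Ptf1a cKO, and Cat at 229 ± 33.1 and 789.6 ± 231 normalized counts per kb (SD, n = 3). Prdx4 was then the highest member in both groups. The acinar list fell in the same libraries as Prdx4, and its part in this change was not tested.

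**Figure D3:**
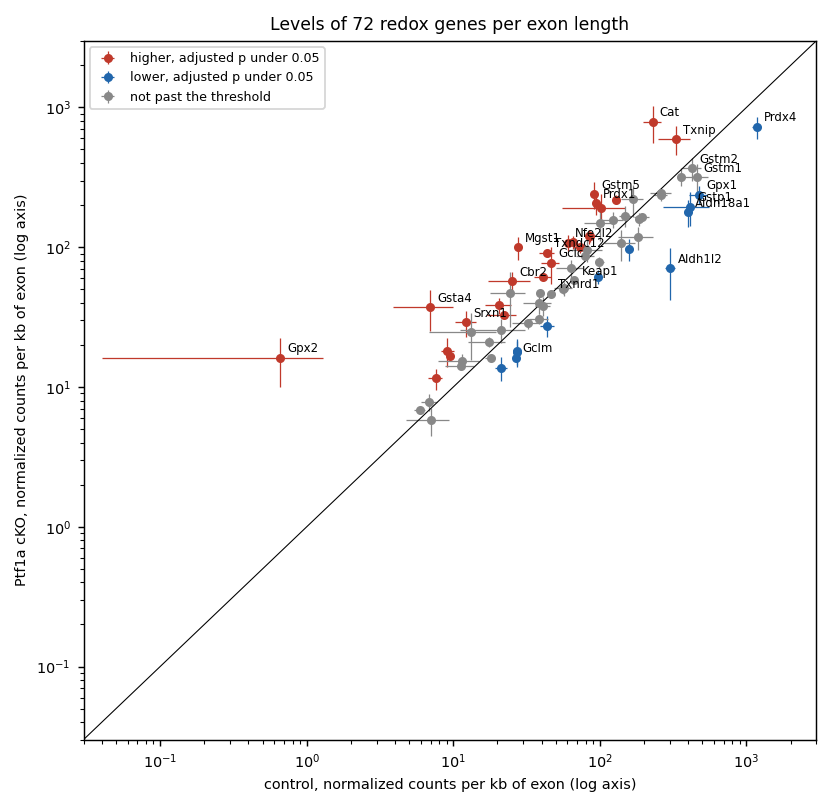
Mean level of each of the 72 redox genes in control (x axis) and Ptf1a cKO (y axis) pancreata, in normalized counts per kb of exon on log axes, with SD bars (n = 3 each). The line marks equal levels. Cat, Txnip, Mgst1 and Gpx2 lie above it and Prdx4, Gpx1 and Aldh1l2 below it.

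Among the other peroxiredoxins, Prdx1 and Prdx2, both mainly cytosolic, rose and 4 did not pass. Prdx1 rose from 283, 272 and 297 to 717, 507 and 657 normalized counts (log2 fold change 1.12, SE 0.141, limma adjusted p = 5.88e-04), with all Ptf1a cKO libraries above all controls. Prdx2 rose by 0.46 on the log2 scale (limma adjusted p = 0.0204), from 198, 225 and 243 to 337, 282 and 299. Its call was lost without some libraries (adjusted p = 0.0819 without control replicate 1, 0.0592 without control replicate 2, 0.073 without Ptf1a cKO replicate 1). Log2 fold changes that did not pass were -0.23 for the mitochondrial Prdx3, 0.36 for Prdx5, 0.12 for Prdx6 and 0.43 for Prdx6b. Other annotated genes share 29.7% of the 50-base windows of Prdx5, 23.8% of Prdx2 and 10.9% of Prdx1, so their levels are uncertain.

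Glutathione peroxidases also moved in both directions. Gpx1, the ubiquitous cytosolic form, fell from 612, 637 and 795 to 284, 379 and 365 normalized counts (log2 fold change -0.99, SE 0.152, limma adjusted p = 0.00153), without overlap. Gpx2, the form of the gastrointestinal epithelium (GRCm38 chr12:76792333-76795554), was at 2.28, 0.0576 and 4.05 in the controls and at 49.0, 34.0 and 73.7 in Ptf1a cKO (log2 fold change 3.33, SE 0.501, limma adjusted p = 0.00138). The control values lie near the pseudocount of 3.41 normalized counts, so this change is understated. The pseudogene Gpx2-ps1 shares 18.9% of its 50-base windows. The gastric markers given above rose in the same libraries, and their part was not tested. Gpx3, the secreted form, was called higher (log2 fold change 0.96, limma adjusted p = 0.0318), although the groups overlapped (151, 122 and 278 against 250.1, 413 and 376). That call was lost without some libraries (adjusted p = 0.107 without control replicate 1, 0.111 without control replicate 2, 0.065 without Ptf1a cKO replicate 2, 0.0885 without Ptf1a cKO replicate 3). Gpx8, an ER form, had 17.7, 30.0 and 28.4 against 60.9, 24.8 and 61.2 and did not pass (log2 fold change 0.79, limma adjusted p = 0.114), but without Ptf1a cKO replicate 2, whose value lay among the controls, it did (adjusted p = 0.00834). Gpx4, which reduces lipid peroxides, had a log2 fold change of -0.11 (limma adjusted p = 0.648, 95% interval -0.48 to 0.27). 61.7% of its 50-base windows recur in other annotated genes, and reads that were not unique had been left out of the counting.

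**Figure D4:**
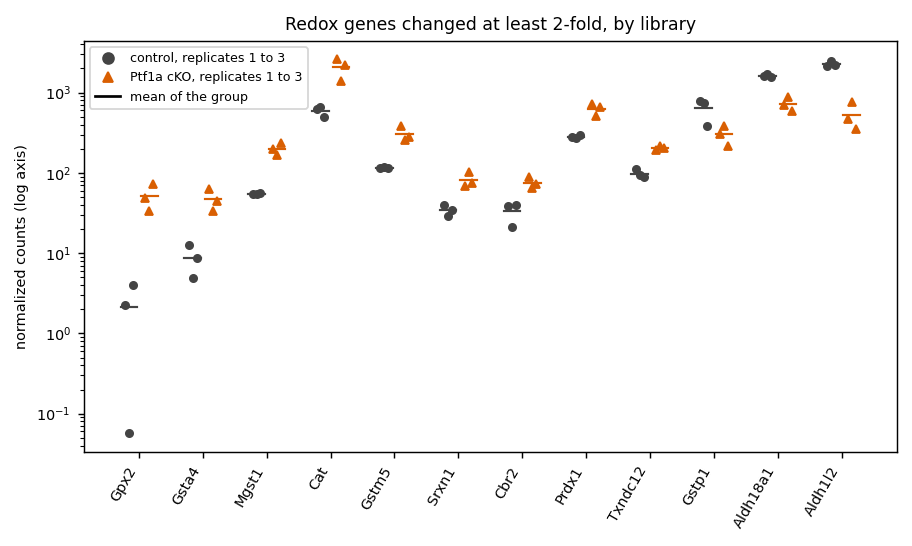
Normalized counts (log axis) by library of the 12 redox genes that changed at least 2-fold, passed the threshold and had no overlap between the groups. Circles are the 3 control libraries, triangles the 3 Ptf1a cKO libraries and lines the group means. Gpx2 to Txndc12 were higher in Ptf1a cKO and Gstp1 to Aldh1l2 lower.

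The glutathione S-transferases changed member by member, also within one gene cluster. Of 14 cytosolic transferases 4 were higher (28.6%), 2 lower (14.3%) and 8 did not pass, where 17.1% of all genes were called higher and 16.8% lower. Gstm5 rose from 116, 118 and 115 to 384, 259.8 and 277 normalized counts (log2 fold change 1.35, SE 0.153, limma adjusted p = 3.52e-04). Gstm1, whose gene lies in the same cluster of chromosome 3, had 649, 821 and 550.0 and 521, 543 and 329 (log2 fold change -0.55, limma adjusted p = 0.0736). The ratio of Gstm5 to Gstm1 within a library was 0.179, 0.143 and 0.21 in the controls and 0.737, 0.479 and 0.842 in Ptf1a cKO. Gstm4 rose by 0.85 on the log2 scale (limma adjusted p = 0.0119), while Gstm2 (log2 fold change -0.23, limma adjusted p = 0.31) and Gstm7 (log2 fold change -0.38, limma adjusted p = 0.184) did not pass. Gsta4, which acts on the lipid peroxidation product hydroxynonenal, rose from 12.5, 4.88 and 8.81 to 63.3, 33.1 and 44.7 (log2 fold change 2.06, SE 0.377, limma adjusted p = 0.00348), and Gsta3 fell from 120.4, 115 and 121 to 85.4, 86.2 and 60.3 (log2 fold change -0.62, limma adjusted p = 0.0156). Gstp1 fell from 791, 748 and 383 to 304, 383 and 218 (log2 fold change -1.04, SE 0.287, limma adjusted p = 0.0216). Control replicate 3 lay at the upper edge of the Ptf1a cKO values, by a margin of less than 1 normalized count. The Gstp1 call was lost without several libraries (adjusted p = 0.0856 without control replicate 1, 0.0803 without control replicate 2, 0.0506 without Ptf1a cKO replicate 1, 0.0692 without Ptf1a cKO replicate 3). Gstt3 was higher (log2 fold change 0.48, limma adjusted p = 0.0126). Log2 fold changes of members that did not pass were 0.57 for Gstk1, 0.16 for Gsto1, 0.38 for Gstt1, 0.0593 for Gstt2 and 0.16 for Gstz1. Leaving out 1 library lost the calls of Gsta3 (adjusted p = 0.0516 without control replicate 1) and Gstm4 (adjusted p = 0.0511 without Ptf1a cKO replicate 1) and gained those of Gstk1 and Gstm1 without Ptf1a cKO replicate 2 (adjusted p = 0.0255 and 0.0367). Sequence shared with other annotated genes covered 62.3% of the 50-base windows of Gstp1 (Gstp2 and a pseudogene), 26.0% of Gstt3, 23.1% of Gstm1 and 14.4% of Gstm5, so their levels are uncertain.

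The membrane-bound transferases moved apart. Mgst1 (GRCm38 chr6:138140316-138156755), which sits in the ER and outer mitochondrial membrane, had 54.4, 54.7 and 56.4 normalized counts in the controls and 199.95, 165 and 239 in Ptf1a cKO (log2 fold change 1.79, SE 0.15, limma adjusted p = 9.18e-05), the smallest adjusted p among the 72 members. Its control values spanned less than 2 normalized counts. Mgst3 fell from 41.9, 50.0 and 52.4 to 33.6, 32.3 and 24.1 (log2 fold change -0.63, limma adjusted p = 0.0445), a call that was lost in each of the 6 fits with 1 library left out (adjusted p = 0.0507 to 0.134).

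In the thioredoxin system the thioredoxins Txn1 and Txn2 did not pass the threshold, the inhibitor Txnip was called higher and the reductase Txnrd3 lower. Txnip, which binds and inhibits thioredoxin, was at 1325, 873 and 895 normalized counts in the controls and at 1427, 1852 and 2287 in Ptf1a cKO (log2 fold change 0.85, SE 0.21, limma adjusted p = 0.0144). All Ptf1a cKO values lay above the controls, but control replicate 1 came close to the lowest of them, and the call was lost without 2 of the controls (adjusted p = 0.062 without control replicate 2, 0.0534 without control replicate 3). The gene Gm15441 shares 18.4% of its 50-base windows. Txn1, the cytosolic thioredoxin, was at 396, 354 and 382 and 387, 334 and 287 (log2 fold change -0.18, limma adjusted p = 0.326). The mitochondrial Txn2 was at 389, 413 and 448 and 345, 349 and 290.1, lower in every Ptf1a cKO library but short of the threshold (log2 fold change -0.35, limma adjusted p = 0.0513), which it passed without Ptf1a cKO replicate 2 (adjusted p = 0.0475). Txnl1 (log2 fold change -0.15, limma adjusted p = 0.433) and the mitochondrial reductase Txnrd2 (log2 fold change -0.15, limma adjusted p = 0.413) did not pass. Txnrd3 was called lower (log2 fold change -0.60, limma adjusted p = 0.0406), a call lost without 5 of the 6 libraries in turn (adjusted p = 0.101 without control replicate 1, 0.139 without control replicate 2, 0.059 without control replicate 3, 0.057 without Ptf1a cKO replicate 1, 0.116 without Ptf1a cKO replicate 3).

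Proteins with a thioredoxin domain outside this system gave 1 higher (11.1%) and 2 lower (22.2%) of 9, where 17.1% and 16.8% of all genes were called. Txndc12, an ER oxidoreductase, rose from 111, 93.3 and 88.9 to 193, 217 and 207 normalized counts (log2 fold change 1.05, SE 0.126, limma adjusted p = 4.61e-04). Txndc11 fell from 846, 901 and 812 to 532, 607 and 483 (log2 fold change -0.66, limma adjusted p = 0.0035), and the spliceosomal Txnl4a from 688, 696 and 766 to 441, 512 and 359 (log2 fold change -0.72, limma adjusted p = 0.00499). Txndc5, an abundant protein disulfide isomerase of the ER, had 1068, 1063 and 1402 and 1102, 1179 and 1012 (log2 fold change -0.0913, limma adjusted p = 0.645), with overlapping groups. Log2 fold changes of the others, none past the threshold, ran from -0.14 (Txndc17) to 0.33 (Txndc9), with 0.24 for Txndc15, 0.18 for Txndc16 and 0.27 for Txnl4b. Txndc9 passed without control replicate 2 (adjusted p = 0.0379).

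Glutaredoxins, which reduce glutathione-bound protein thiols, gave 1 call in each direction among 4 members. Over all genes 17.1% were called higher and 16.8% lower. Glrx rose from 37.2, 46.4 and 41.6 to 75.9, 55.2 and 59.3 normalized counts (log2 fold change 0.56, limma adjusted p = 0.0404), and the mitochondrial and nuclear Glrx2 fell from 232, 254 and 232 to 147, 198 and 128 (log2 fold change -0.61, limma adjusted p = 0.0175). Glrx lost its call without 5 libraries in turn (adjusted p = 0.12 without control replicate 1, 0.0633 without control replicate 2, 0.075 without control replicate 3, 0.15 without Ptf1a cKO replicate 1, 0.073 without Ptf1a cKO replicate 3), and Glrx2 without 3 (adjusted p = 0.0649 without control replicate 2, 0.0556 without Ptf1a cKO replicate 1, 0.056 without Ptf1a cKO replicate 3). Glrx3 (log2 fold change -0.22, limma adjusted p = 0.591) and Glrx5 (log2 fold change -0.15, limma adjusted p = 0.504) did not pass. The gene Gm12669 shares 20.4% of the 50-base windows of Glrx3.

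Of the superoxide dismutases, the extracellular form was called. Sod3 rose from 30.2, 34.9 and 37.1 to 49.9, 78.2 and 75.1 normalized counts (log2 fold change 0.90, SE 0.209, limma adjusted p = 0.0104). The cytosolic Sod1 had 278, 279 and 423 against 452, 375 and 313, with control replicate 3 above 2 of the Ptf1a cKO libraries (log2 fold change 0.23, limma adjusted p = 0.383, 95% interval -0.21 to 0.66). The gene Gm8566 shares 23.1% of the 50-base windows of Sod1, so its level is uncertain. The mitochondrial Sod2 had 369.5, 449 and 339 against 321, 326 and 277, lower in every Ptf1a cKO library but not past the threshold (log2 fold change -0.31, limma adjusted p = 0.101).

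Among the aldehyde dehydrogenases, the falls belonged to genes of folate and proline metabolism. Aldh1l2, the mitochondrial formyltetrahydrofolate dehydrogenase that yields NADPH (GRCm38 chr10:83487450-83534140), fell from 2129.5, 2483 and 2195 to 468, 770.0 and 349.9 normalized counts, 4.29-fold between means (log2 fold change -2.17, SE 0.245, limma adjusted p = 3.56e-04). Ptf1a cKO replicate 2 held the highest of the 3 values and still lay far below the controls. The gene D10Wsu102e shares 16.8% of the 50-base windows of Aldh1l2. Aldh18a1, which starts proline synthesis, fell from 1599, 1720.3 and 1561 to 706, 893 and 583 (log2 fold change -1.18, SE 0.158, limma adjusted p = 7.82e-04). Both calls held with each library left out. Aldh1l1, the cytosolic relative of Aldh1l2, was at 932, 967 and 563 and 643, 477 and 472 and did not pass (log2 fold change -0.60, limma adjusted p = 0.0581), but did without control replicate 3 or Ptf1a cKO replicate 1 (adjusted p = 0.00888 without control replicate 3, 0.0454 without Ptf1a cKO replicate 1). The retinaldehyde dehydrogenase Aldh1a1 rose from 428, 389 and 422 to 637, 623 and 509 (log2 fold change 0.50, limma adjusted p = 0.0132), and its close copy Aldh1a7 did not pass (log2 fold change -0.21, limma adjusted p = 0.197). Aldh1a2 was at 24.4, 19.0 and 45.9 and 47.2, 79.5 and 41.4 (log2 fold change 0.87, limma adjusted p = 0.0741) and passed without control replicate 3, its highest control (adjusted p = 0.0267). Aldh3a2, which oxidizes fatty aldehydes, rose from 342, 389 and 367 to 669, 536 and 629 (log2 fold change 0.73, limma adjusted p = 0.00223), and Aldh16a1 was higher (log2 fold change 0.58, limma adjusted p = 0.0252). The call of Aldh1a1 was lost in 1 fit (adjusted p = 0.0587 without control replicate 2) and that of Aldh16a1 in 2 (adjusted p = 0.0692 without Ptf1a cKO replicate 1, 0.065 without Ptf1a cKO replicate 3).

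Carbonyl reductases, which use NADPH to reduce quinones and other carbonyls, were higher in 2 of 3 cases, where 17.1% of all genes were. Cbr1 rose from 336, 349 and 309 to 596, 567 and 516 normalized counts (log2 fold change 0.75, SE 0.111, limma adjusted p = 0.0013), and Cbr2 from 39.1, 21.4 and 39.9 to 88.9, 65.7 and 72.04 (log2 fold change 1.13, SE 0.245, limma adjusted p = 0.00772). The gene Gm11771 shares 15.1% of the 50-base windows of Cbr2. Cbr4 did not pass (log2 fold change 0.20, limma adjusted p = 0.416).

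In the wider list, the genes of NRF2 control and other targets moved in both directions. Of 26 measured genes of NRF2 control and other targets, 9 were higher and 6 lower, where 17.1% and 16.8% of all genes were called. Ephx1, the microsomal epoxide hydrolase, rose from 147, 161 and 155 to 397, 512 and 492 normalized counts (log2 fold change 1.57, SE 0.126, limma adjusted p = 8.44e-05). Ptgr1, which reduces reactive alkenals, rose from 38.0, 30.4 and 24.8 to 87.5, 95.5 and 98.8 (log2 fold change 1.51, limma adjusted p = 4.61e-04), and Blvrb, a biliverdin reductase, from 43.9, 39.6 and 37.1 to 104, 114 and 114 (log2 fold change 1.39, limma adjusted p = 2.19e-04). The aldo-keto reductases Akr1c12 (log2 fold change 1.22, limma adjusted p = 8.20e-04), Akr1c13 (log2 fold change 2.20, limma adjusted p = 2.39e-04), Akr1c14 (log2 fold change 1.41, limma adjusted p = 0.00306), Akr1c19 (log2 fold change 2.71, limma adjusted p = 0.00229) and Akr1b10 (log2 fold change 1.05, limma adjusted p = 0.021) were higher, and close paralogs make the division of reads among them uncertain. The metal-binding Mt1 fell from 8014, 8037 and 7467 to 2083, 4752 and 1452 (log2 fold change -1.69, limma adjusted p = 0.00702) and Mt2 from 2874, 3553 and 4005 to 994, 1978 and 640.4 (log2 fold change -1.67, limma adjusted p = 0.00611). The Akr1b10 call was lost without 4 libraries in turn (adjusted p = 0.0644 without control replicate 1, 0.0589 without control replicate 2, 0.0892 without Ptf1a cKO replicate 1, 0.0645 without Ptf1a cKO replicate 3).

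Genes of NADPH supply gave 2 higher (18.2%) and 3 lower (27.3%) of 11 measured, where 17.1% and 16.8% of all genes were called. Me3 was the only one of these called genes past 2-fold (log2 fold change 1.34, limma adjusted p = 0.00143). Among 17 measured genes of oxidases and of repair of oxidized proteins, 5 were higher and 5 lower (29.4% each), beside the same shares of all genes. Msrb1, a methionine sulfoxide reductase, fell from 1803, 1645 and 1548 to 646, 719 and 432 normalized counts (log2 fold change -1.50, limma adjusted p = 5.07e-04), and Ero1lb, which passes electrons from protein disulfide isomerase to oxygen, from 4906, 4489.9 and 4188 to 1970.1, 2241 and 1548 (log2 fold change -1.25, limma adjusted p = 6.34e-04). Subunits of the phagocyte NADPH oxidase were higher, namely Cyba (log2 fold change 1.72, limma adjusted p = 0.00148), Cybb (log2 fold change 1.10, limma adjusted p = 0.0292) and Ncf1 (log2 fold change 1.30, limma adjusted p = 0.0493). Without Ptf1a cKO replicate 3 the log2 fold change of Ncf1 was 0.80. The leukocyte markers given above rose in the same libraries, and their part was not tested. Duox2, an epithelial oxidase that makes hydrogen peroxide, went from 57.9, 60.5 and 53.5 to 148, 690.4 and 126.3 (log2 fold change 1.98, limma adjusted p = 0.0186), with Ptf1a cKO replicate 2 far above the other 2. Without it the log2 fold change was 1.21. Calls were lost without single libraries for Cybb (adjusted p = 0.0694 without control replicate 1, 0.0875 without control replicate 2, 0.0657 without control replicate 3, 0.0742 without Ptf1a cKO replicate 1, 0.0822 without Ptf1a cKO replicate 3), Ncf1 (adjusted p = 0.0869 without control replicate 1, 0.12 without control replicate 2, 0.114 without control replicate 3, 0.0864 without Ptf1a cKO replicate 1, 0.14 without Ptf1a cKO replicate 3) and Duox2 (adjusted p = 0.0576 without control replicate 1, 0.0509 without control replicate 2, 0.0618 without control replicate 3).

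The 3 Ptf1a cKO libraries differed in the extent of change. Replicate 2 held the most Ptf1a and the largest share of digestive enzymes (63.8%), and replicate 3 the least of both (38.3% for the enzymes). Of the 36 members called, replicate 2 lay nearest to the control mean in 23 (63.9%), against 60.2% of all genes called, replicate 1 in 8 and replicate 3 in 5. For members called lower the count was 10 of 12, and for members called higher 13 of 24. Shares by direction were not computed over all genes, so this split cannot be read as particular to the members.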

How the data were processed

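Whole-pancreas RNA of 6 mice was sequenced as 50-nucleotide single-end reads. Per the labels, the submitters' processing notes name TopHat2 2.0.4, Bowtie 0.12.7.0, SAMtools 0.1.18.0, HTSeq 0.6.0 and mm9. The authors deposited 1 signal per gene symbol and library, a normalized read count with decimals from which whole reads could not be recovered, so limma on a log2 scale replaced a count test. Reads that were not unique made up 74.4% to 81.1% of a library's normalized counts, and they and 2 further totals, together 75.7% to 82.6%, were left out.

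Values were divided by 13.6, 0.25 was added and log2 taken. Genes with a mean under 0.25 would have been dropped, which removed 0. The 2 groups were fitted by limma 3.58.1 in R 4.3.3 with a mean-variance trend, two-sided. The fit was tested on simulated data. Exact permutation tests covered single genes. Symbols were matched to GENCODE M21 (GRCm38) for positions and exon length (72 of 72) and to RefSeq GRCm38.p6 for promoters (61 of 72). Coordinates are of GRCm38, not of the mm9 alignment. Shared sequence is the percent of 50-base windows of the longest coding transcript found in a transcript of another gene on either strand. Precision rests on 3 mice a group, and the p-values measure the spread between these mice.

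Members and lists were chosen with earlier results of these data known. The naming rule gives library values for members past the threshold with a change of at least 2-fold and no overlap, the most abundant member of each class, and core genes (Nfe2l2, Keap1, Hmox1, Gclc, Gclm, Gss, Gsr, Txnrd1, Srxn1, Sod1, Sod2 and Cat), and names genes of the wider list that changed at least 2-fold. Library values of further members were added for description. The 19 alternatives were other pseudocounts, filters, scalings, limma settings, a replicate block, sex, a stricter threshold and each library left out.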

Additional observations from a re-analysis of the deposited data

How the results depend on the processing

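With 1 library left out in turn, between 19 and 25 members were higher and between 8 and 13 lower, the median log2 fold change of the members ran from 0.13 to 0.23, and 16 to 22 genes of the wider list were higher and 22 to 26 lower. Of the 36 members called, 23 kept their call in all 6 of these fits. At an adjusted p under 0.01, 13 members were higher and 7 lower, and 13 genes of the wider list were higher and 21 lower, where 8.12% of all genes were higher and 9.39% lower. With the same total for every library, 67 members were higher and 1 lower, 68 genes of the wider list were higher and 2 lower, and the median of the members was 1.65. Without the digestive enzymes in that total the median was 0.33. Other pseudocounts, filters on low values, limma with robust moderation or with no trend, the 75th percentile, the median of ratios and sex as a covariate left the counts of calls within 1.5 times. Directions turned with the same total, where the log2 fold changes were Gclm 0.76, Gsr 1.30, Gsta3 0.83, Gstm1 0.94, Gstm2 1.27, Gstm7 1.09, Gstp1 0.44, Mgst3 0.75, Gpx1 0.50, Gpx4 1.33, Prdx3 1.25, Prdx4 0.80, Txn1 1.31, Txn2 1.14, Txnl1 1.33, Txnrd1 1.48, Txnrd2 1.29, Txnrd3 0.80, Txndc11 0.83, Txndc17 1.34, Txndc5 1.40, Txnl4a 0.77, Glrx2 0.86, Glrx3 1.14, Glrx5 1.30, Keap1 1.28, Sod2 1.17, Aldh18a1 0.31, Aldh1a7 1.27, Aldh1l1 0.89, Cth 0.18, Slc3a2 0.39, Ero1lb 0.25. They also turned with the same total without digestive enzymes (Gpx4 0.0331, Txnrd1 0.14, Txndc17 0.00553, Txndc5 0.0544) and with the same 75th percentile (Txnrd1 0.0407). Without single libraries, signs turned for Gstt2 (-0.13 to 0.16), Gpx4 (-0.21 to 0.00386), Txnrd1 (-0.0372 to 0.0321), Txndc5 (-0.16 to 0.0405), Glrx5 (-0.27 to 0.0182), none past the threshold. The replicate number as a block gave 25 members higher and 13 lower, and 22 genes of the wider list higher and 25 lower. Deviations from the group means of libraries with the same number correlated at 0.0391, 0.13 and 0.14, and those of libraries with unlike numbers at -0.20 to 0.0829. With 3 libraries a group these values cannot decide whether the numbers mark pairs. The main fit did not pair the libraries. The study states the uniquely aligned reads of each library, but whole reads per gene could not be recovered. This limits statements on genes with low values such as Gpx2 and Abcc2.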

Other observations

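A test of whether the effect of genotype differed between the sexes, added after the data were seen, passed for 0 of the 72 members (limma interaction term, Benjamini-Hochberg), with 3 at an unadjusted p under 0.05 and a lowest adjusted p of 0.670. Over all 10245 genes 4 passed and 490 had an unadjusted p under 0.05. Each group held 1 male, so the value for males rests on 1 mouse per group.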
